A study of Mus musculus with 30 samples.

Results

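The miRNAs described here come from 5 hairpins, Mir17, Mir20a, Mir25, Mir93 and Mir106b, of the 2202 miRNA hairpins annotated in GENCODE M21 (GRCm38). They were chosen by name, and their reads are those whose whole sequence matched 1 of the 5 hairpins in the sense direction without a mismatch. All 5 hairpins had reads, and 1967 of the 2202 hairpins had at least 1 read in the 30 libraries. The libraries hold small RNA of 15 to 42 nt (traditional-seq) or 15 to 45 nt (PANDORA-seq) from the cortex (prefrontal cortex in the study's methods) of mice of both sexes, aged 6 months and congenic on C57BL/6J. AD mice were hemizygous 5xFAD mice, which express mutated human transgenes from the Thy1 promoter, active mainly in neurons, and WT mice were their littermates. Traditional-seq, in which adapters were joined to the size-selected RNA directly, was run on 7 WT and 7 AD libraries. PANDORA-seq, in which T4PNK repairs RNA ends for adapter joining and AlkB takes methyl marks off RNA bases before the same library step, was run on 8 WT and 8 AD libraries. The labels give each library its own replicate number but do not say whether the 2 protocols used the same mice. File codes are shared between the protocols for 14 libraries of each. Tests between the protocols took libraries as independent unless said otherwise, so p-values measure the spread between libraries.

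A miRNA acts mostly through its seed, the bases near the 5' end of a mature miRNA that pair with target mRNAs. Mir17 and Mir20a lie in the Mir17hg transcript, and Mir25, Mir93 and Mir106b lie together within Mcm7, a gene of the replicative helicase. Both clusters are known as promoters of cell cycle entry and as repressors of cell cycle inhibitors and of pro-apoptotic mRNAs, and in brain they are best known from dividing neural progenitors. Drosha and Dicer cut a mature strand from each side of a hairpin, the 5p arm and the 3p arm, of which usually 1 is retained in Argonaute.

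The mature miRNAs are shown to separate the shared seed from the other one. The sequences are RefSeq mature forms on GRCm38.p6, written 5' to 3', with the seed (bases 2 to 8) in capitals. The first 4 have the seed AAAGUGC, and miR-25-3p has the seed AUUGCAC of the miR-25 and miR-92 group. The last, miR-106b-3p, is shown because most Mir106b reads came from it and not from the arm that carries the family seed.
miR-17-5p: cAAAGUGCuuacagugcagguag
miR-20a-5p: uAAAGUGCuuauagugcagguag
miR-93-5p: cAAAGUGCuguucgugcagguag
miR-106b-5p: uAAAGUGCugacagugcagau
miR-25-3p: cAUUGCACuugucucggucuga
miR-106b-3p: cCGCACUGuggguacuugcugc

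Mir17 (chr14:115043671-115043754) and Mir20a (chr14:115044157-115044263) lie on the plus strand of GRCm38 and overlap an exon of the lincRNA Mir17hg. Mir25 (chr5:138165321-138165404) and Mir93 (chr5:138165523-138165610) lie on the minus strand and overlap an exon of a Mcm7 transcript with a retained intron, and Mir106b (chr5:138165737-138165818) lies in a Mcm7 intron. No read of these hairpins matched another annotated hairpin. All Mir17 and Mir20a reads also match Mir17hg, and all Mir25 and Mir93 reads also match the Mcm7 transcript, as each hairpin is part of its host.

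Depth differed between the protocols. Traditional-seq libraries held 9370669 to 17053412 reads, of which 35.9% to 50.3% matched a hairpin exactly, and PANDORA-seq libraries held 54926347 to 105876141 reads, of which 1.51% to 5.54% did. All 11 neuronal marker hairpins had reads in every group, with a summed level of 419116 to 846957 reads per 1000000 hairpin reads in traditional-seq, where a read that fits several copies counts at each. In these bulk libraries, fewer cells of a type and less RNA per cell cannot be told apart.

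Mir25 was the most abundant of the 5 hairpins, followed by Mir106b, Mir93, Mir20a and Mir17. Levels are counts per 1000000 hairpin reads (CPM), and a read is taken as 1 whole small RNA, so levels are not divided by length. Mir25 exceeded Mir106b in 14 of 14 traditional-seq and 16 of 16 PANDORA-seq libraries, with a median ratio of 2.67 and 5.10. Mir106b exceeded Mir93 and Mir93 exceeded Mir20a in every one of these libraries. Mir20a exceeded Mir17 in 13 of 14 traditional-seq libraries and in 16 of 16 PANDORA-seq libraries. The full order held in 29 of 30 libraries, and the counts behind its low end were small, with 11 to 67 Mir17 reads in a traditional-seq library and 8 to 63 in a PANDORA-seq library.

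In traditional-seq, Mir25 had 289 to 626 CPM in WT mice (median 416) and 237 to 712 in AD mice (median 506). Mir106b, next to it in Mcm7, had 62.6 to 316 in WT mice (median 224) and 76.5 to 331 in AD mice (median 216). Mir93 had 18.6 to 49.0 in WT mice (median 29.01) and 16.8 to 65.5 in AD mice (median 30.2). The genotypes overlapped for these 3 hairpins of the Mcm7 cluster. Mir20a, of the Mir17hg cluster, had 5.31 to 22.5 in WT mice (median 18.8) and 11.9 to 25.4 in AD mice (median 14.6). Mir17 had 3.67 to 11.4 in WT mice (median 6.70) and 2.34 to 12.9 in AD mice (median 5.89). These ranges overlapped as well.

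In PANDORA-seq, Mir25 had 667 to 1288 CPM in WT mice (median 883) and 636 to 1281 in AD mice (median 974). Mir106b had 129 to 231 in WT mice (median 188) and 80.7 to 239 in AD mice (median 168). Mir93 had 29.2 to 84.1 in WT mice (median 39.0) and 17.0 to 61.3 in AD mice (median 44.99). Again the ranges of WT and AD libraries overlapped. Mir20a had 13.2 to 63.3 in WT mice (median 17.1) and 5.66 to 33.8 in AD mice (median 13.2). Mir17 had 4.83 to 34.4 in WT mice (median 12.2) and 2.38 to 18.1 in AD mice (median 7.21). The highest Mir17, Mir20a, Mir93 and Mir25 values all came from WT replicate 1.

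**Figure D1:**
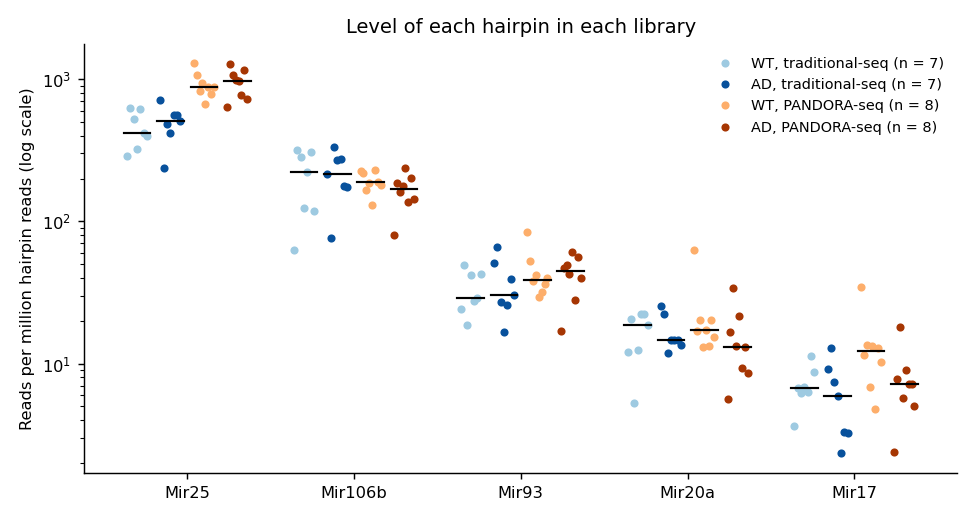
Reads CPM (log axis) of each hairpin, with 1 point per library, colored by genotype and protocol, and a black bar at the group median. WT and AD points overlap for each hairpin, and the order from Mir25 to Mir17 is the same in the 4 groups.

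The comparison of AD with WT mice asked whether these miRNAs change with the transgenes. None of the 5 hairpins was called (edgeR quasi-likelihood test, TMM normalization, adjusted p under 0.05 and fold over 2). In traditional-seq 0 of 613 hairpins tested were called (0%), with 8 at an unadjusted p under 0.05, none of them among the 5, and DESeq2 also called 0. The log2 fold change (AD over WT) was 0.10 ± 0.24 (SE) for Mir25, 0.10 ± 0.33 for Mir106b, 0.23 ± 0.34 for Mir93, 0.07 ± 0.33 for Mir20a and -0.09 ± 0.42 for Mir17. Their median was 0.10 beside 0.01 over all hairpins, and edgeR's adjusted p was 0.999 for each. Without AD replicate 2, Mir93 and Mir20a turned to -0.094 and -0.11 and Mir17 moved to -0.52.

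In PANDORA-seq 0 of 823 hairpins were called (0%) by edgeR's quasi-likelihood test, 6 by its likelihood ratio test and 10 by DESeq2, and none of these called any of the 5. At an unadjusted p under 0.05 there were 196 hairpins, again without any of the 5. The log2 fold change (AD over WT) was 0.35 ± 0.23 (SE) for Mir25, with an edgeR adjusted p of 0.477, and -0.50 ± 0.34 for Mir17, with an adjusted p of 0.508. It was 0.22 ± 0.24 for Mir93, 0.03 ± 0.24 for Mir106b and -0.26 ± 0.33 for Mir20a, with adjusted p of 0.746, 0.945 and 0.746. Per hairpin read, Mir93 and Mir106b turned to -0.054 and -0.21, so the direction of these values depends on the scaling. The mean of Mir25 was 917 CPM in WT and 951 in AD mice, a smaller difference than with TMM. For Mir17 the means were 13.4 and 7.82, a larger difference than with TMM. The median of the 5 was 0.03 beside 0.07 over all hairpins. Without WT replicate 1, the values for Mir17 and Mir20a were -0.29 and 0.0019, so the direction for Mir20a rests on that library.

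The 2 arms and the single sequences gave no call either. In traditional-seq, 6 arms of the 5 hairpins were tested and 0 were called, as were 0 of 742 arms in all (0%), with 10 at an unadjusted p under 0.05 and 0 by DESeq2. In PANDORA-seq, 8 of their arms were tested and 0 called, against 1 of 1115 arms (0.0897%) by edgeR's quasi-likelihood test and 206 at an unadjusted p under 0.05. Its likelihood ratio test called 7 arms and DESeq2 53, with 0 of the 8 among either. The lowest p was that of miR-17-5p in PANDORA-seq, with a log2 fold change of -0.72 ± 0.38 (SE) and an edgeR adjusted p of 0.358. Of single sequences, 0 of 18 were called in traditional-seq, beside 0 of 1925 (0%) with 20 at an unadjusted p under 0.05 and 0 by DESeq2. In PANDORA-seq 0 of 15 were called, beside 39 of 3449 (1.13%), 380 at an unadjusted p under 0.05, 63 by the likelihood ratio test and 75 by DESeq2. The difference between the protocols in the AD effect was called for 0 of the 5 and for 0 of 1008 hairpins (0%) by edgeR, with 94 at an unadjusted p under 0.05 and 0 by DESeq2.

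The summed level of the 5 hairpins was 718 ± 227 (SD, n = 7) CPM in WT and 772 ± 186 (SD, n = 7) in AD traditional-seq libraries. The difference was 0.13 on the log2 scale (p = 0.600 by an exact two-sided permutation test, with 0.901 after adjustment for 2 tests). In PANDORA-seq the sums were 1188 ± 250 (SD, n = 8) and 1182 ± 278 (SD, n = 8), a difference of -0.02 (exact permutation test, p = 0.901). Per 1000000 reads of any kind the PANDORA-seq sums were 29.8 ± 9.70 (SD, n = 8) in WT and 35.9 ± 11.1 (SD, n = 8) in AD mice, so that the difference turned to 0.29 (p = 0.246 by exact permutation). Of the other cell types, the 4 microglial markers Mir155, Mir146, Mir142 and Mir223 had, in traditional-seq, log2 fold changes (AD over WT) of 1.43 ± 0.43, 1.17 ± 0.46, 0.77 ± 0.38 and -0.38 ± 0.41 (SE), each with an edgeR adjusted p of 0.999. In PANDORA-seq, where Mir155 did not pass the filter, Mir146, Mir142 and Mir223 had 0.50 ± 0.30, 0.09 ± 0.27 and 0.30 ± 0.53, with edgeR adjusted p of at least 0.412. Their summed level was 117 to 452 CPM in WT and 173 to 1341 in AD libraries of traditional-seq, and 322 to 883 in WT and 108 to 858 in AD libraries of PANDORA-seq. Among the other markers, the oligodendrocyte hairpins Mir219a-2, Mir338 and Mir219a-1 had 0.78 ± 0.36, 0.29 ± 0.33 and 0.10 ± 0.24 (SE) in traditional-seq, each with an edgeR adjusted p of 0.999. In PANDORA-seq the red blood cell hairpins went in different directions, with 1.56 ± 0.58 for Mir486, -0.12 ± 0.30 for Mir144 and -0.04 ± 0.25 for Mir451a (edgeR adjusted p of 0.122, 0.823 and 0.919). So did the neuronal hairpins in PANDORA-seq, with 0.76 for the 3 copies of Mir124a (0.76 ± 0.28 for Mir124a-1, edgeR adjusted p of 0.122), 0.17 for the 3 copies of Mir9 and -0.38 to -0.13 for the other 5, Mir128-1, Mir128-2, Mir138-1, Mir138-2 and Mir137. In traditional-seq all 11 neuronal hairpins were negative, from -0.31 for Mir128-1 to -0.003 for Mir9-1, with -0.25 ± 0.35 for Mir124a-1. The red blood cell hairpins were negative there too, with -0.17 ± 0.33 for Mir486, -0.54 ± 0.45 for Mir451a and -0.01 ± 0.45 for Mir144. Each had an edgeR adjusted p of 0.999. None of the 11 neuronal, 3 oligodendrocyte, 3 vessel and 3 red blood cell markers was called by edgeR's quasi-likelihood test in either protocol. In PANDORA-seq the summed neuronal markers had 277930 to 484185 CPM in WT and 175306 to 425860 in AD libraries. The summed red blood cell markers had 3121 to 11823 and 3819 to 29561, mostly from Mir486, with a mean of 5745 in WT and 11380 in AD libraries, while the means were 363 and 268 for Mir451a and 45.6 and 31.7 for Mir144. The summed oligodendrocyte markers had 539 to 2254 in WT and 1003 to 4122 in AD libraries of traditional-seq. In PANDORA-seq they had 1189 to 4023 in WT and 1042 to 3488 in AD libraries. The log2 fold changes (AD over WT) of Mir219a-2, Mir338 and Mir219a-1 were 0.12 ± 0.29, 0.42 ± 0.29 and 0.43 ± 0.30 (SE) there. Their edgeR adjusted p was at least 0.508. The part of any of these markers in the levels of the 5 hairpins was not tested.

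PANDORA-seq was compared with traditional-seq to see how the protocols differ in the detection of these miRNAs. Besides the enzymatic treatment they differed in depth, in the longest read and in the number of RNA isolation steps. A difference thus cannot be assigned to the enzymes. The direction depended on what the reads were scaled to. With TMM normalization all 5 were called lower in PANDORA-seq, per hairpin read 0 were called, and per 1000000 reads of any kind all 5 were called lower again. With TMM the log2 fold change (PANDORA-seq over traditional-seq) was -2.96 ± 0.21 (SE) for Mir106b, -2.68 ± 0.24 for Mir20a, -2.52 ± 0.22 for Mir93, -2.27 ± 0.28 for Mir17 and -1.77 ± 0.17 for Mir25. The edgeR adjusted p ranged from 2.19e-15 to 2.84e-09. The fit of WT libraries alone called the 5 beside 699 of 838 hairpins in either direction (83.4%), and that of AD libraries alone called them beside 710 of 850 (83.5%). Beside the 5 of 5 called lower and 0 called higher stood 303 of 1008 hairpins called lower (30.1%) and 528 called higher (52.4%), with a median of 1.25 over all hairpins and of -2.52 over the 5. With TMM many marker hairpins of other cell types were as low or lower. Among them were Mir128-1 at -4.37, Mir143 at -3.94, Mir142 at -3.45, Mir9-1 at -3.15 and Mir338 at -2.37. Others lay higher, with -1.62 for Mir223, -0.82 for Mir144, -0.40 to -0.39 for the Mir124a copies and 2.78 for Mir486. Low values were thus not particular to the 5.

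Scaled to hairpin reads alone, the same log2 fold changes became 0.97 for Mir25, 0.58 for Mir17, 0.32 for Mir93, 0.15 for Mir20a and -0.25 for Mir106b, while the median over all hairpins was 4.05 and 872 of 1008 hairpins (86.5%) were called in either direction. Of all calls, 63.5% were higher in PANDORA-seq with TMM, 86.4% per hairpin read and 40.7% per read of any kind. Scaled to all reads, they ran from -4.12 for Mir106b to -2.94 for Mir25, beside a median of -0.71 over all hairpins and 476 of 1011 called lower (47.1%). The 5 hairpins lay below the median hairpin on each of these scales, by 3.03 to 4.22 with TMM, by 3.08 to 4.30 per hairpin read and by 2.23 to 3.41 per read of any kind. A change of scaling moves all hairpins together, so these gaps are not separate results. The gap depended on which hairpins and reads were compared. It was 0.16 to 1.38 over hairpins with a Mir symbol and 0.99 to 2.19 with reads that match 1 hairpin. With reads of 20 to 25 nt it was 1.29 to 2.84, and with untemplated 3' ends allowed 2.99 to 4.28. With TMM over the 513 tested hairpins that carry a Mir symbol, a selection made after seeing the data, the values ran from -1.18 for Mir106b to 0.05 for Mir25 beside a median of 0.20, and 1 of the 5, Mir106b, was called, beside 390 of the 513 (76%) in either direction.

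**Figure D2:**
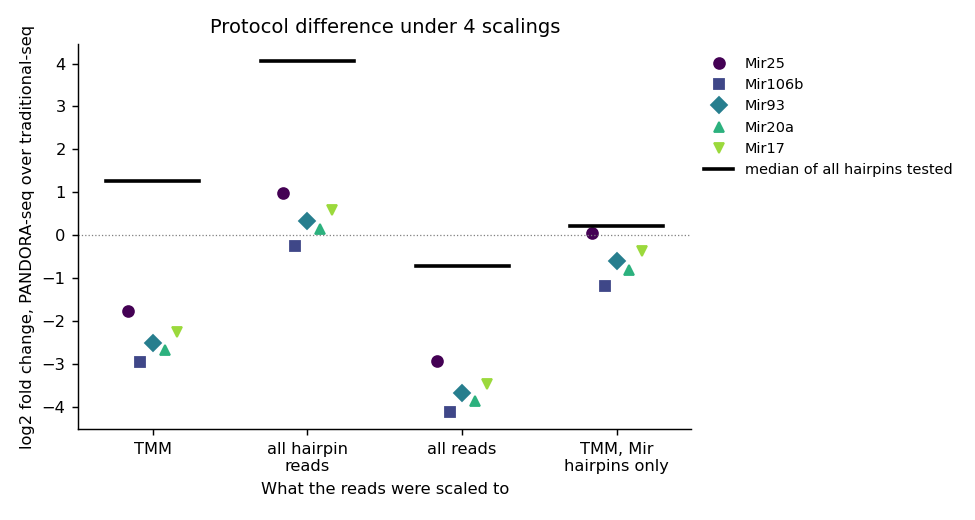
The log2 fold change of PANDORA-seq over traditional-seq for each hairpin (symbols) and the median over all hairpins tested (black bars) under 4 scalings on the x axis. The symbols move together from one scaling to the next, with Mir25 highest and Mir106b lowest in each.

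Summed over the 5 hairpins, libraries held 745 ± 201 CPM (SD, n = 14) in traditional-seq, with a range of 391 to 1018, and 1185 ± 255 (SD, n = 16) in PANDORA-seq, with a range of 742 to 1696. The PANDORA-seq sum was 0.70 higher on the log2 scale (p = 3e-05 by two-sided permutation), and 12 of 16 libraries exceeded every traditional-seq library. Mir25 gave most of the reads in the sum. Its log2 fold change per hairpin read was 0.97, beside 0.58 for Mir17, 0.32 for Mir93, 0.15 for Mir20a and -0.25 for Mir106b. Per 1000000 reads of any kind the sum was 309 ± 79.8 (SD, n = 14) in traditional-seq and 32.9 ± 10.5 (SD, n = 16) in PANDORA-seq, so that it was lower by 3.26 on the log2 scale (p = 1e-05 by permutation, the lowest value possible with 100000 shuffles). All 16 PANDORA-seq libraries lay below all traditional-seq libraries on that scale. Reads of any hairpin took a mean of 42.2% of all reads in traditional-seq and 2.87% in PANDORA-seq. A lower level on that scale was thus not particular to the 5.

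The makeup of the 5 does not depend on the scaling, but it does depend on which reads are counted. The shares of a library have a fixed sum, so a gain of 1 hairpin is a loss of the others. The tests of the shares are thus not independent. Mir25 took 64.0% ± 6.39 (SD, n = 14) of their reads in traditional-seq, between 52.8% and 73.8%, and 78.9% ± 2.99 (SD, n = 16) in PANDORA-seq, between 74.5% and 85.8%. Every PANDORA-seq library exceeded every traditional-seq library (permutation test, p = 1e-05, adjusted p = 2.5e-05 over 5 tests). Mir106b took 27.4% ± 7.76 in traditional-seq and 15.1% ± 2.41 in PANDORA-seq (permutation test, adjusted p = 2.5e-05). Mir20a took 2.39% ± 1.11 and 1.52% ± 0.770 (adjusted p = 0.0236, permutation test), and Mir93 took 5.27% ± 3.52 and 3.60% ± 0.685 (adjusted p = 0.0488, permutation test). AD traditional-seq replicate 2 had by far the highest Mir93 share, 15.8%. Without it the difference for Mir20a was -0.63 percentage points and that for Mir93 was -0.86, with adjusted p of 0.0548 and 0.121. The Mir93 call did not rest on that library alone, as it was lost in 21 of the 30 tests that left out 1 library. Mir17 took 1.01% ± 0.707 and 0.874% ± 0.483 (permutation test, adjusted p = 0.566). With reads that end in 1 or 2 untemplated bases counted too, as added after seeing the data, Mir17 took 1.39% ± 0.743 (SD, n = 14) and 0.850% ± 0.462 (SD, n = 16) and passed (permutation test, adjusted p = 0.0174). Mir93 then took 7.03% ± 3.55 and 3.72% ± 0.690 (permutation test, adjusted p = 0.000117), and Mir25 60.3% ± 6.74 and 78.4% ± 2.78.

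Between genotypes, the Mir25 share in PANDORA-seq was 77.2% ± 1.33 (SD, n = 8) in WT and 80.6% ± 3.29 (SD, n = 8) in AD mice, with p = 0.0169 by exact permutation and 0.169 once adjusted over 10 tests. Of the AD libraries 6 of 8 lay above all WT libraries and 1 lay below them. Leaving out that library, AD replicate 5, was bound to raise the difference, which went from 3.38 to 4.25 percentage points (exact permutation test, adjusted p = 0.00311). It was the only 1 of 16 leave-outs to pass the threshold, and a library picked for its low value gives no support for a difference. In traditional-seq the Mir25 share was 64.4% ± 6.71 (SD, n = 7) in WT and 63.6% ± 6.56 (SD, n = 7) in AD mice, and none of the 10 shares compared between genotypes passed the threshold with all libraries included.

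The arm that gave most reads was 5p for Mir17, Mir20a and Mir93 and 3p for Mir25 and Mir106b. In traditional-seq the 5p arm took 96.1% ± 4.11 (SD, n = 14) of Mir17 reads, 99.8% ± 0.487 of Mir20a reads and 98.5% ± 1.08 of Mir93 reads, but 0.209% ± 0.124 of Mir25 reads and 6.72% ± 6.08 of Mir106b reads. In AD traditional-seq replicate 2 the 5p arm took 23.9% of Mir106b reads, against at most 13.3% in the other traditional-seq libraries. A 5p arm without reads occurred for Mir25 in AD traditional-seq replicate 7 (0 of 2163 reads, which allows a share of up to 0.139%) and for Mir106b in WT PANDORA-seq replicate 3 (0 of 222 reads, up to 1.35%). These limits cover counting error only.

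The minor arm gained share in PANDORA-seq for Mir25 and Mir93. Mir25 had 1.85% ± 0.703 (SD, n = 16) of its reads on the 5p arm in PANDORA-seq, and 16 of 16 libraries lay above all traditional-seq libraries (permutation test, p = 1e-05, adjusted p = 2.5e-05 over 5 tests). This rested on 628 reads of miR-25-5p in PANDORA-seq and 71 in traditional-seq, beside 33585 and 33148 reads of miR-25-3p. Mir93 had 87.3% ± 5.73 (SD, n = 16) of its reads on the 5p arm in PANDORA-seq, with 15 of 16 libraries below all traditional-seq libraries (permutation test, adjusted p = 2.5e-05). Mir106b moved the other way, with 3.11% ± 1.77 on the 5p arm in PANDORA-seq (permutation test, adjusted p = 0.0232). Without AD traditional-seq replicate 2, named above, the difference went from -3.61 to -2.29 percentage points, with an adjusted p of 0.0577 by permutation. Arms were assigned by the midpoint of a read of any length. In PANDORA-seq, 69 of 185 reads on the Mir93 3p arm were 30 to 45 nt long and 17 were 25 to 29 nt. In traditional-seq these were 0 and 2 of 39. The Mir93 share thus counts fragments longer than mature miR-93-3p beside it. On the Mir106b 5p arm 77 of 185 PANDORA-seq reads were 30 to 45 nt long, and on the Mir25 5p arm 25 of 628.

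In the TMM fit over arms, 6 of the 8 arms tested were called lower in PANDORA-seq, beside 381 of 1411 arms (27%), and 1 was called higher, beside 748 of 1411 (53%). That arm was miR-25-5p, with a log2 fold change of 1.52 ± 0.33 (SE) and an edgeR adjusted p of 6.23e-05, at 0.20 and not called per read of any kind, while miR-25-3p of the same hairpin had -1.62 ± 0.17 and an adjusted p of 4.69e-11. The 3p arm of Mir93, with the longer fragments named above, had 0.59 ± 0.40 and did not pass (edgeR adjusted p = 0.157), though it was called higher per hairpin read, at 3.11, and stood at -0.77 per read of any kind. Per hairpin read miR-25-3p and miR-17-5p were at 0.95 and 0.53 instead. Between genotypes, the 5p share differed for 0 of 10 pairs of a hairpin and a protocol (exact permutation tests, lowest p = 0.0839, for Mir93 in traditional-seq).

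**Figure D3:**
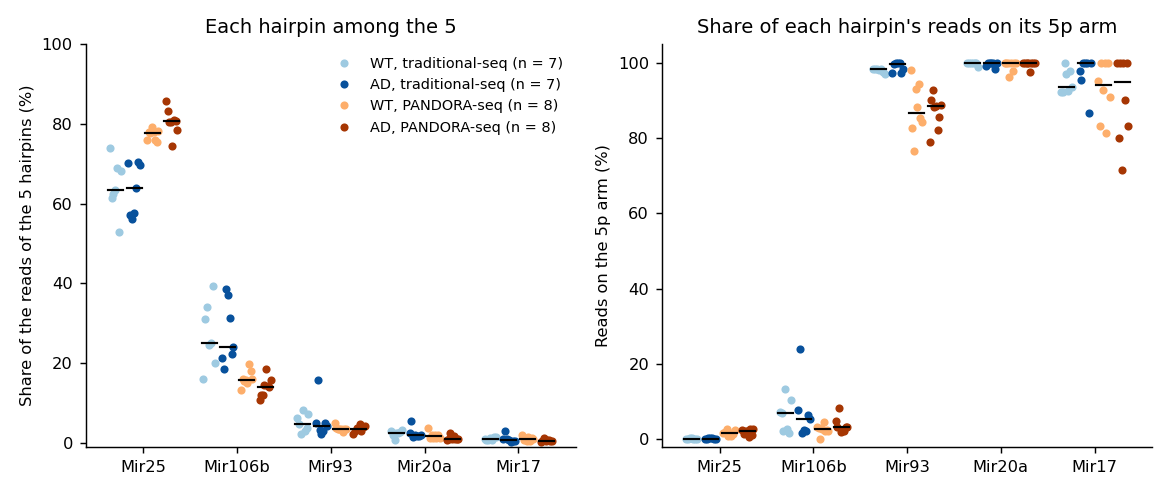
Left, the percentage of the reads of the 5 hairpins that each took, and right, the percentage of each hairpin's reads on its 5p arm, with 1 point per library and a black bar at the group median. Mir25 points of PANDORA-seq lie above those of traditional-seq in the left panel, and Mir93 points of PANDORA-seq lie lower in the right panel.

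Among exact reads, the 3' ends of the main arms differed between the protocols. The forms below are shown because they are the RefSeq form and its nearest shorter neighbour on each arm. Each pair gives, as in the files, the RefSeq length and the form that is 1 nt shorter, and a capital marks the last base that the shorter form lacks.
miR-25-3p, 22 nt: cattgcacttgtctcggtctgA
miR-25-3p, 21 nt: cattgcacttgtctcggtctg
miR-20a-5p, 23 nt: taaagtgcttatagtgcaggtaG
miR-20a-5p, 22 nt: taaagtgcttatagtgcaggta
miR-93-5p, 23 nt: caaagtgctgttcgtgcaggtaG
miR-93-5p, 22 nt: caaagtgctgttcgtgcaggta
miR-106b-3p, 22 nt: ccgcactgtgggtacttgctgC
miR-106b-3p, 21 nt: ccgcactgtgggtacttgctg
miR-17-5p, 23 nt: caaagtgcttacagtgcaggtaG
miR-17-5p, 22 nt: caaagtgcttacagtgcaggta

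The 22-nt form took 78.4% ± 6.16 (SD, n = 14) of exact miR-25-3p reads in traditional-seq and 7.92% ± 1.89 (SD, n = 16) in PANDORA-seq. The 21-nt form took 18.5% ± 5.97 and 77.6% ± 3.05. No library was intermediate, as the 22-nt form took at least 70.5% in each traditional-seq library and at most 12.7% in each PANDORA-seq library. For miR-20a-5p, the 23-nt form took 88.9% ± 6.15 in traditional-seq and 26.3% ± 11.1 in PANDORA-seq, and the 22-nt form 1.53% ± 2.23 and 65.1% ± 10.8. For miR-93-5p, the 23-nt form took 67.0% ± 9.34 and 35.5% ± 7.41, and the 22-nt form 2.46% ± 2.33 and 39.6% ± 11.7. On average these 3 arms thus had their RefSeq form as the most frequent in traditional-seq and the shorter form in PANDORA-seq. For miR-93-5p the 2 forms overlapped in PANDORA-seq libraries, with 26.7% to 73.7% for the 22-nt form and 13.2% to 45.4% for the 23-nt form.

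For miR-17-5p the 23-nt form was the most frequent in both protocols, with 57.0% ± 16.3 (SD, n = 14) in traditional-seq and 50.1% ± 16.4 (SD, n = 16) in PANDORA-seq. For miR-106b-3p the most frequent form was likewise the 22-nt form in traditional-seq and the 21-nt form in PANDORA-seq, but the ends were spread more widely. The 22-nt form took 44.8% ± 7.18 and 9.33% ± 2.39, and the 21-nt form 17.7% ± 4.04 and 32.2% ± 4.64. A read that ran 1 nt past the RefSeq end took 17.4% ± 6.91 of miR-93-5p reads and 16.04% ± 11.8 of miR-17-5p reads in traditional-seq, and 0.273% ± 0.637 and 0% in PANDORA-seq.

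The share of exact reads that ended before the RefSeq 3' end was higher in PANDORA-seq for all 5 main arms. It went from 20.9% ± 6.25 (SD, n = 14) to 92.0% ± 1.95 (SD, n = 16) for miR-25-3p, from 6.75% ± 5.38 to 73.4% ± 10.9 for miR-20a-5p, from 14.7% ± 9.11 to 61.0% ± 8.80 for miR-93-5p, from 51.4% ± 7.01 to 87.9% ± 2.76 for miR-106b-3p and from 26.7% ± 14.8 to 49.4% ± 15.9 for miR-17-5p. The adjusted p was 1.25e-05 for the first 4 and 0.00038 for miR-17-5p (permutation tests, 5 tests). The first 4 had no overlap between the protocols, and for miR-17-5p 11 of 16 PANDORA-seq libraries lay above all traditional-seq libraries. This share was not computed for the other hairpin arms, so whether it is particular to these 5 is unknown.

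**Figure D4:**
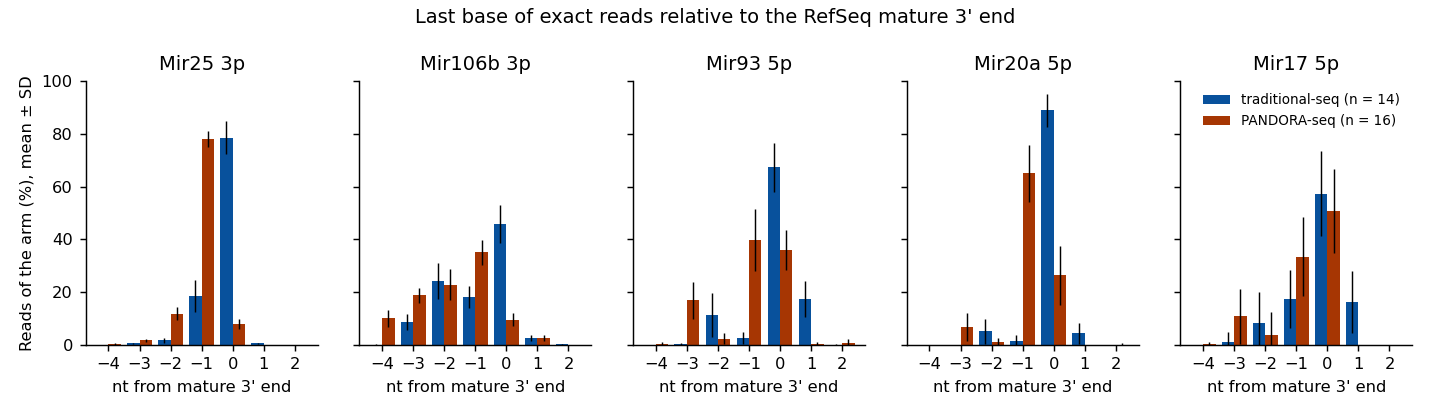
Percentage of exact reads of each main arm (mean ± SD over libraries) by the distance of the last base from the RefSeq mature 3' end, in nt, for traditional-seq (blue) and PANDORA-seq (orange). The tallest bar sits at 0 for traditional-seq in each panel and at -1 for PANDORA-seq in each panel but that of Mir17.

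Mean read length was accordingly lower in PANDORA-seq, by 0.856 nt for miR-25-3p, by 0.811 nt for miR-106b-3p, by 0.778 nt for miR-93-5p, by 0.763 nt for miR-20a-5p and by 0.633 nt for miR-17-5p (permutation tests, adjusted p = 1.25e-05 for the first 4 and 3e-05 for miR-17-5p). The mean length of exact miR-25-3p reads was 21.8 nt ± 0.0692 (SD, n = 14) in traditional-seq and 20.9 nt ± 0.0425 (SD, n = 16) in PANDORA-seq. Of the 493 other hairpin arms with at least 5 reads in every library, 61.1% also had a shorter mean length in PANDORA-seq, with a median difference of -0.571 nt, against 5 of 5 and -0.778 nt here.

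The 5' ends, which set the seed, moved little. At least 98.7% of reads on average began at the RefSeq first base for miR-17-5p, miR-20a-5p, miR-25-3p and miR-93-5p in either protocol. For miR-106b-3p it was 94.9% ± 1.19 (SD, n = 14) in traditional-seq and 91.6% ± 2.11 (SD, n = 16) in PANDORA-seq, where 13 of 16 libraries lay below all traditional-seq libraries (permutation test, adjusted p = 0.0002). The difference was -0.478 percentage points for miR-25-3p (permutation test, adjusted p = 5e-05) and -0.952 for miR-93-5p (adjusted p = 0.0251).

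Many reads carried 1 or 2 bases at the 3' end that the hairpin does not encode, so that they did not count above as exact matches. They took 50.1% ± 9.25 (SD, n = 14) of miR-17-5p reads in traditional-seq and 3.96% ± 7.35 (SD, n = 16) in PANDORA-seq, and 47.5% ± 6.33 and 9.72% ± 5.14 of miR-93-5p reads. The shares were 30.6% ± 7.62 and 9.61% ± 5.51 for miR-106b-3p, 27.5% ± 8.51 and 3.72% ± 3.94 for miR-20a-5p, and 22.1% ± 4.69 and 5.70% ± 3.13 for miR-25-3p. Each difference passed (permutation tests, adjusted p = 2e-05 for miR-106b-3p and 1.25e-05 for the other 4), and a lower share in PANDORA-seq was found in 98.8% of the 493 other arms too. Exact matching thus left out more reads in traditional-seq than in PANDORA-seq. The levels, folds, 3' ends and mean lengths above therefore cover unequal parts of the reads. With these reads counted, the TMM log2 fold change (PANDORA-seq over traditional-seq) was -3.11 for Mir106b, -3.03 for Mir93, -2.89 for Mir17, -2.85 for Mir20a and -1.82 for Mir25, and all 5 were called, beside 331 of 1044 hairpins called lower and a median of 1.17. AD PANDORA-seq replicate 1 had the highest PANDORA-seq share for all 5 main arms, with 16.7% for miR-25-3p and 28.9% for miR-106b-3p.

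The untemplated base that was counted differed between the arms. In traditional-seq a single A made up 90.1% of the 426 extended miR-17-5p reads, 83.6% of 432 for miR-20a-5p and 79.3% of 2083 for miR-93-5p, the main arms with the seed AAAGUGC. For miR-106b-3p a single T (U in the RNA) made up 50.6% of 6473 extended reads and a single A 31.3%, and for miR-25-3p these were 39.8% and 21.4% of 9355. Among the untemplated bases counted in traditional-seq, A was thus the most frequent on these 5p arms and T on both 3p arms. An added base that equals the next base of the hairpin counts as an exact match. That next base is T after the 23-nt form of these 5p arms and after the 22-nt form of miR-106b-3p. It is A after the 21-nt form of miR-25-3p, so a 21-nt read with an added A counts as the 22-nt form. The bases that can be counted thus differ between the arms, and the part of this in the contrast was not tested. In PANDORA-seq a single A made up only 20.3% of 143 extended miR-93-5p reads, 13.04% of 23 for miR-20a-5p and 30% of 10 for miR-17-5p. In PANDORA-seq a single A was more frequent than a single T for both 3p arms, with 57.4% and 12.6% of 659 extended miR-106b-3p reads and 39.8% and 21.3% of 1994 extended miR-25-3p reads. These base counts are pooled over libraries. Whether the order holds without AD PANDORA-seq replicate 1, which had the highest share of extended reads, was not tested.

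**Figure D5:**
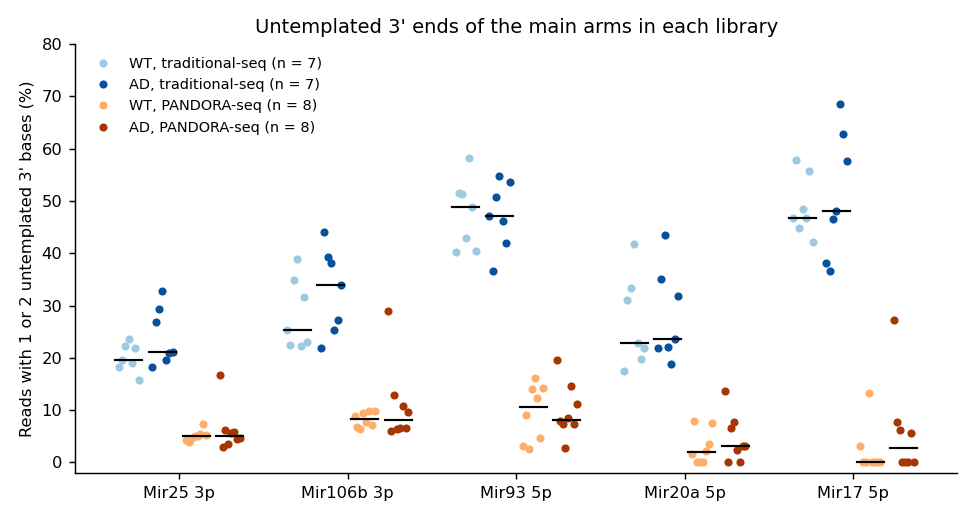
Percentage of reads of each main arm with 1 or 2 untemplated 3' bases, with 1 point per library, colored by genotype and protocol, and a black bar at the group median. Traditional-seq points lie above PANDORA-seq points apart from AD PANDORA-seq replicate 1, which reaches 28.9% for Mir106b 3p and 16.7% for Mir25 3p.

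Between AD and WT mice none of these measures passed. Mean length, start position, untemplated ends and reads ending early were each compared for 12 pairs of an arm and a protocol, and 0 had an adjusted p under 0.05 (exact permutation tests). The lowest unadjusted values were p = 0.0286 for miR-106b-5p reads ending early in traditional-seq, with 19.95% ± 9.92 (SD, n = 7) in WT and 9.51% ± 5.85 (SD, n = 7) in AD mice (0.301 after adjustment, exact permutation), and p = 0.0441 for the mean length of miR-25-5p in PANDORA-seq, with 22.7 nt ± 1.11 (SD, n = 8) and 21.7 nt ± 0.546 (SD, n = 8) (0.530 after adjustment, exact permutation).

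Reads of 30 nt or longer, which reach from an arm into the loop, were found mostly in PANDORA-seq. The longest reads in the files were 42 nt in traditional-seq and 45 nt in PANDORA-seq, and the longest from these hairpins were 39 nt and 43 nt. They made up 90 of 1560 Mir93 reads (5.77%) in PANDORA-seq and 8 of 2433 (0.329%) in traditional-seq. For Mir106b there were 95 of 6576 (1.44%), found in all 16 PANDORA-seq libraries, and 1 of 14700, and for Mir25 40 of 34213 and 0 of 33219, in which a count of 0 allows up to 3 reads. Of the Mir106b long reads 74 of 95 began at the first base of the 5p arm, whereas 55 of the 90 Mir93 long reads ended within 1 nt of the end of the 3p arm. The most frequent long read of each is shown, with the mature miRNA in capitals, to show which side of the hairpin it kept. The Mir93 read had 25 reads in 11 of 16 PANDORA-seq libraries, the Mir106b read had 20 reads in 10, and neither occurred in traditional-seq.
Mir93, 38 nt: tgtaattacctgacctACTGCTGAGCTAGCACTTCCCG
Mir106b, 39 nt: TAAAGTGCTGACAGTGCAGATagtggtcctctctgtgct

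Of the 11 relatives, the other hairpins of both clusters and of the X-linked paralogous cluster and Mir92b, 5 passed the filter in traditional-seq and 4 in PANDORA-seq, and 0 were called between AD and WT mice (edgeR, adjusted p of 0.999 in traditional-seq and at least 0.489 in PANDORA-seq). Mir92-1, transcribed with Mir17 and Mir20a, had 183 ± 76.8 (SD, n = 7) CPM in WT traditional-seq and 3226 ± 437 (SD, n = 8) in WT PANDORA-seq. Its reads can be shared with Mir92-2, which carries the same mature sequence, and a shared read counts in full at each. In WT libraries Mir92-1 and Mir92-2 had 6359 and 418 reads in traditional-seq, and 54055 and 35108 in PANDORA-seq. The folds of the copies are thus not separate, and the part of shared reads in them was not tested. With TMM the log2 fold change (PANDORA-seq over traditional-seq) was 0.96 ± 0.25 (SE) for Mir92-1 and 4.54 ± 0.25 for Mir92-2, where those of Mir17 and Mir20a were negative on that scale. It was 2.28 ± 0.32 for Mir92b and 0.09 ± 0.29 for Mir363. Mir19b-1, from the same transcript, had -3.61 ± 0.34 and likewise shares reads with a copy, Mir19b-2.

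The hairpins whose level over the 14 traditional-seq libraries was most like each of the 5 are named as a description only, since all points share libraries and depth. Among 383 hairpins with a mean of at least 10 CPM, Pearson's r of log2 levels was 0.953, 0.939 and 0.935 for Mir106b with Mir532, Mir379 and Mir28a. For Mir93 it was 0.927, 0.914 and 0.898 with Mir135a-1, Mir135a-2 and Mir137. For Mir25 it was 0.906, 0.822 and 0.821 with Mir146b, Mir486 and Mir379. For Mir20a the closest were Snord43 at 0.704, Mir874 at 0.699 and Mir93 at 0.613, and for Mir17 Mirlet7e at 0.567, Mir34b at 0.557 and Mir34c at 0.524. Among the 5 themselves, r was 0.744 for Mir25 with Mir106b and -0.128 and -0.370 for Mir93 with Mir25 and Mir106b, the other hairpins of its cluster. Mir93 and Mir20a had r = 0.613 and Mir17 and Mir20a had r = 0.416.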

How the data were processed

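The authors deposited 1 table per library that pairs every distinct trimmed read of gel-excised small RNA with its raw count, without normalization. The labels name mm39 as the build. The study annotated reads with SPORTS1.1 and compared groups with edgeR, TMM and a likelihood ratio test. Here whole sequences of 15 to 45 nt were matched exactly, in the sense direction, to the 2202 miRNA hairpins of GENCODE M21 (GRCm38), so coordinates are those of GRCm38. A read went to the 5p or 3p arm by the side of the hairpin's centre on which its midpoint lay or, as an alternative, by the RefSeq mature sequence it overlapped. Reads with 1 or 2 further 3' bases were counted apart and entered levels only as an alternative.

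Counts over all hairpins, arms or sequences were fitted with edgeR 4.0.16 in R 4.3.3 (TMM, filterByExpr with a smallest count of 10 and total of 15, quasi-likelihood test, Benjamini-Hochberg adjustment). A call needed an adjusted p under 0.05 and a fold over 2. Per-library measures were compared by two-sided exact permutation tests over 3432 (7 against 7) or 12870 (8 against 8) splits, or by 100000 shuffles between protocols, in Python 3.11.15 with numpy 2.4.6. Ends were measured for arms with at least 5 reads in every library. The planned end measures were on 5p arms, and the 3p arms of Mir25 and Mir106b, the shares among the 5 hairpins, the 3' end positions and the fit over Mir symbols were added after seeing the data. The alternatives comprised DESeq2 1.42.0, edgeR's likelihood ratio test, other scalings and filters, reads of 20 to 25 nt, reads of 1 hairpin, a replicate block and each library left out. The scripts were checked on simulated counts.

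The named genes are the 5 hairpins, their 11 relatives, the 3 hairpins most alike each of the 5, and the most abundant sequences of their arms, and beside them the marker hairpins of other cell types are named. The 5 hairpins and all lists were chosen with earlier results of these data known. Reads carry no molecular identifiers.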

Additional observations from a re-analysis of the deposited data

Results flagged for a closer look

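In 84 groups of 7 or 8 values, 15 held a library that stood apart from the others by Dixon's criterion, which chance alone meets in about 1 group in 20. WT PANDORA-seq replicate 1 had the highest level of Mir17 (34.4 counts per 1000000 hairpin reads, the next 13.5), of Mir20a (63.3, the next 20.4) and of Mir93 (84.1, the next 52.6). AD PANDORA-seq replicate 3 had the highest Mir17 level of its group (18.1, the next 9.05) and 8.27% of Mir106b reads on the 5p arm. AD PANDORA-seq replicate 1 had a mean miR-25-3p length of 21.035 nt, and 16.7% of miR-25-3p, 28.9% of miR-106b-3p and 27.3% of miR-17-5p reads with an untemplated end. The other PANDORA-seq values were 7.26% of miR-25-3p reads with an untemplated end in WT replicate 7, 13.3% of miR-17-5p reads in WT replicate 4, and 97.7% of Mir20a reads on the 5p arm in AD replicate 5. In traditional-seq, the 5p share was 23.9% for Mir106b in AD replicate 2, 86.7% for Mir17 in AD replicate 6 and 99.0% for Mir20a in WT replicate 7. Some of these rest on few reads, as Mir17 had 8 to 67 reads in a library.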

How the results depend on the processing

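Of 2730 comparisons of 79 values with their counterpart under an alternative, 2611 were taken as unchanged. For a single value this means the same direction and side of the threshold, while for a count a small change was allowed. The arms called between the protocols, which went from 7 to 6 per read of any kind (1120 of 1456 arms in all), are thus among the unchanged. No alternative called any of the 5 hairpins, or an arm or sequence of theirs, between AD and WT mice. The count of hairpins called between the protocols went from 5 to 0 per hairpin read (872 of 1008 hairpins called in all) and to 1 with reads of 1 hairpin (399 hairpins in all, 75.9% of those tested) or Mir symbols only (390 of 513), and that of arms went from 7 to 3 per hairpin read (1228 of 1411 arms) and to 3 with Mir symbols (522 of 681). In these settings the log2 difference (PANDORA-seq over traditional-seq) turned positive per hairpin read for Mir17 (0.58), Mir20a (0.15), Mir25 (0.97), Mir93 (0.32), miR-17-5p (0.53), miR-20a-5p (0.15), miR-25-3p (0.95) and miR-93-5p (0.16). It was 0.058 for Mir25 with reads of 1 hairpin and 0.046 with Mir symbols, where miR-25-3p was at 0.20, and miR-93-3p was at -0.77 per read of any kind. Between AD and WT mice in PANDORA-seq, Mir106b was at -0.042 with DESeq2 and -0.042 with its size factors, -0.21 per hairpin read, -0.12 without a filter, -0.011 with reads of 1 hairpin and -0.13 with Mir symbols, and Mir93 was at -0.054 per hairpin read. Mir20a in traditional-seq was at -0.00543 with reads of 1 hairpin. The difference of the AD effect between the protocols was -0.069 for Mir25 per hairpin read, and for Mir93 0.016 per read of any kind, 0.017 with a stricter filter, 0.062 with reads of 1 hairpin, 0.17 with reads of 20 to 25 nt and 0.15 with the replicate block. The summed AD and WT levels in PANDORA-seq differed by 0.0017 with reads of 1 hairpin and by 0.29 per read of any kind. For reads of 20 to 25 nt the 5p share of Mir20a differed between the protocols by 0.0873 percentage points, and for miR-106b-3p reads of 23 nt or longer were 0.795 percentage points higher in PANDORA-seq. The cause of these changes was not tested.

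Leaving out 1 library at a time gave AD over WT log2 values in traditional-seq of -0.066 to 0.31 for Mir106b, -0.52 to 0.11 for Mir17, -0.11 to 0.22 for Mir20a and -0.094 to 0.40 for Mir93. In PANDORA-seq it gave -0.11 to 0.15 for Mir106b and -0.53 to 0.0019 for Mir20a. The difference between the protocols in this effect ran from -0.31 to 0.042 for Mir106b and from -0.18 to 0.32 for Mir93. The summed level differed by -0.0057 to 0.27 in traditional-seq and by -0.085 to 0.070 in PANDORA-seq. The number of shares past the threshold was 0 to 2 between genotypes, with 2 only without AD PANDORA-seq replicate 5, and 2 to 4 between the protocols, with 2 only without AD traditional-seq replicate 2, and the Mir17 share differed by -0.213 to 0.0248 percentage points. The Mir93 share lost its call in 21 of 30 leave-outs.

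Replicate numbers were not taken as pairs, since deviations of same-numbered WT and AD libraries correlated between -0.361 and 0.423 in traditional-seq and between -0.404 and 0.477 in PANDORA-seq. With the replicate block 0 hairpins, arms or sequences of the 5 were called between AD and WT mice, 5 hairpins and 7 arms were called between the protocols (828 of 1003 hairpins and 1137 of 1407 arms in all), and 34 instead of 39 sequences were called in all in PANDORA-seq. Pairing the 14 libraries of both protocols that share a file code also gave 5 and 7, beside 823 of 1001 and 1129 of 1401. The permutation tests between the protocols were not run with this pairing. Low counts of Mir17 and Mir20a limit what small differences could be detected.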
